A study of Rattus norvegicus with 48 samples.

Results

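The genes described here are 6 genes of MHC class II antigen presentation: Cd74, RT1-Ba, RT1-Bb, RT1-Da, RT1-Db1 and Ciita. They were picked by name from the 32883 genes of the deposited count table, with earlier results for the 6 groups of these data already known. The values that led to the choice are not independent of the differences below. Levels and differences of the 6 genes are therefore a description. Counts of the 6 past a threshold stand beside the counts or shares of all genes, and nothing is read from them. The table lists them as ENSRNOG00000018735, ENSRNOG00000000451, ENSRNOG00000032708, ENSRNOG00000032844, ENSRNOG00000033215 and ENSRNOG00000002659, in that order.

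The libraries held RNA bound to tagged ribosomes, recovered by translating ribosome affinity purification (TRAP) with antibodies to green fluorescent protein from nucleus accumbens punches. The rats were adults of both sexes. In D1:Cre rats the tag was aimed at medium spiny neurons with the dopamine D1 receptor, and in A2a:Cre rats at those with the adenosine A2a and dopamine D2 receptors. Over 10 sessions the rats took cocaine or saline by self-administration, and they were killed on day 1 or day 40 of withdrawal. Each transgenic line gave 3 groups of 8 libraries, a library per brain: saline at day 1, cocaine at day 1 and cocaine at day 40. No saline group of day 40 was analysed here, so day 40 and saline libraries differ in both drug and withdrawal day. Sex is not given for single libraries. All animals carried a Cre transgene, and how the tag was delivered is not given in the sources used here. Without antibody, or with wild-type tissue, the pull-down gave no measurable RNA, and traces by PCR, per the labels.

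The 48 libraries held 5.3 to 55.1 M counts, and all but A2a cocaine day 1 replicate 7 held at least 24.5 M. Levels are CPM, counts scaled to a fixed library total, with totals adjusted by the trimmed mean of M values (TMM). The neuron markers matched the genotype labels: summed CPM of 4 D1 markers (Drd1, Pdyn, Chrm4 and Isl1) was 985.4 to 2122.0 in the 24 D1 libraries and 193.6 to 349.5 in the 24 A2a libraries. Summed CPM of 5 A2a markers, among them Penk, Adora2a and Drd2, was 8036.0 to 14000.0 in the A2a libraries and 838.3 to 2118.0 in the D1 libraries. Each line thus also held some reads of the other line's markers.

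MHC class II molecules are pairs of an alpha and a beta chain that show peptides from engulfed proteins to CD4+ T cells. In the rat, RT1-Ba and RT1-Bb encode the alpha and beta chains of RT1.B, and RT1-Da and RT1-Db1 those of RT1.D. Cd74 encodes the invariant chain, which fills the peptide groove during assembly and steers the pair to endosomes. Ciita encodes the transactivator that assembles on class II promoters and sets how strongly they are transcribed. In the brain, class II is known mainly from microglia and from macrophages, dendritic cells and B cells at the borders and vessels, and not as a product of medium spiny neurons. In pull-down RNA, fewer cells of a type, less RNA per cell and less carry-over of RNA from untagged cells cannot be told apart.

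Class II promoters are known for an X box bound by the RFX complex and a Y box bound by NF-Y, on which the transactivator docks. The sequences show how far the class II genes measured here share this arrangement. They are bases -130 to -31 from each gene's start in RefSeq's GRCr8 assembly, a later build than the Rnor_6.0 genome behind the counts. Capitals mark the letters ACNGATG (core of the X1 box) and GATTGG (core of the Y box), or GATTGG read on the other strand. RT1-Da lies at chr20:4515285-4515384 on the plus strand, RT1-Db1 at chr20:4560193-4560292 on the minus strand, RT1-Ba at chr20:4576927-4577026 on the plus strand and RT1-Bb at chr20:4604149-4604248 on the minus strand.
RT1-Da: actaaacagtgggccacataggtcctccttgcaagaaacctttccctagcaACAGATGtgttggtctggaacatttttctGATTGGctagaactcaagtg
RT1-Db1: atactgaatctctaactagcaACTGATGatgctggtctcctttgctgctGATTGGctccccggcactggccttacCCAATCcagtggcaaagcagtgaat
RT1-Ba: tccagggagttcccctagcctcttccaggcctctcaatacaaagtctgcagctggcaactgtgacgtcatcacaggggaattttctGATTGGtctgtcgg
RT1-Bb: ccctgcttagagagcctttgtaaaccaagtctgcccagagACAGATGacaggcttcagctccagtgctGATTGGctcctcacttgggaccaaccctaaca

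RefSeq held windows of 250 bases before to 50 after the start for 5 of the 6 genes, and Ciita had no entry. The Y box letters were found in the 4 chain genes, starting at -50 in RT1-Da, -81 in RT1-Db1, -44 in RT1-Ba and -62 in RT1-Bb. RT1-Db1 held them once more on the other strand. The X1 letters were found in RT1-Da at -79, in RT1-Db1 at -109 and in RT1-Bb at -90. They started 29, 28 and 28 bases before the Y letters. RT1-Ba held the Y letters alone, and Cd74 held neither, which says only that these letters are not in this window. Of all 33469 windows, 14.8% held the Y letters on either strand, 10.2% the X1 letters and 1.41% both.

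By group median, Cd74 mRNA was lowest in D1 libraries of day 40 of withdrawal from cocaine. Its CPM there ran from 3.97 through a median of 19.1 to 39.7. D1 saline libraries ran from 38.4 through 94.1 to 376.0, and D1 cocaine day 1 libraries from 12.3 through 97.7 to 114.3. In the A2a line the lowest, median and highest values were 27.3, 102.4 and 560.6 with saline, 6.66, 130.7 and 475.7 with cocaine at day 1, and 50.6, 152.3 and 364.3 with cocaine at day 40. By their medians the groups ordered from D1 day 40 through D1 saline, D1 cocaine day 1, A2a saline and A2a cocaine day 1 to A2a day 40. Between neighbours in this order the library ranges overlapped, and between D1 day 40 and D1 saline they did so through 1 library on the day 40 side.

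The RT1.B chains had the same low group. RT1-Ba, the alpha chain, ran from 0.506 through 3.01 to 6.24 CPM in D1 day 40 libraries, against 6.30, 18.4 and 71.9 in D1 saline and 2.28, 17.6 and 21.0 in D1 cocaine day 1. Every D1 day 40 library thus lay below every D1 saline library for RT1-Ba. In the A2a groups the RT1-Ba median was 18.8 with saline, 23.1 with cocaine at day 1 and 30.5 at day 40, over 0.896 to 120.6. RT1-Bb, the beta chain, was sparser. It ran from 0.0758 through 0.966 to 1.80 CPM at D1 day 40, against 0.591, 2.57 and 11.3 in D1 saline and 0.0920, 3.11 and 4.38 in D1 cocaine day 1. Its A2a medians were 4.07, 3.69 and 4.22 CPM for saline, cocaine day 1 and cocaine day 40. At RT1-Bb 3 of the 8 D1 day 40 libraries lay below all D1 saline libraries, so the groups overlapped.

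The RT1.D chains followed. RT1-Da, the alpha chain, ran from 0.862 through 2.81 to 6.67 CPM at D1 day 40, against 6.36, 15.2 and 49.8 in D1 saline and 1.47, 13.3 and 16.6 in D1 cocaine day 1. RT1-Db1, the beta chain, ran from 1.16 through 2.26 to 5.41 CPM at D1 day 40, against 3.88, 10.4 and 41.1 in D1 saline and 1.98, 10.5 and 13.4 in D1 cocaine day 1. For RT1-Da 7 of the 8 day 40 libraries, and for RT1-Db1 5, lay below all D1 saline libraries. The A2a medians were 11.1, 17.8 and 19.0 CPM for RT1-Da and 11.5, 15.8 and 17.2 for RT1-Db1, in the order saline, cocaine day 1 and cocaine day 40. RT1-Db1 has a near-identical copy, RT1-Db2, so the split of reads between these beta chain genes is uncertain.

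Ciita was near the limit of detection. It had 13 counts in all 8 D1 day 40 libraries together, with 0 in 4 of them, against 78 counts in D1 saline and 48 in D1 cocaine day 1. The A2a groups held 149, 106 and 181 counts with saline, cocaine day 1 and cocaine day 40. Its highest level in any library was 1.46 CPM, in A2a day 40. The other 5 genes were above 0 in all 48 libraries. All 6 passed the filter on low counts, but Ciita reached the filter's limit of 0.265 CPM in 20 libraries, of which 16 were A2a and none D1 day 40, so it passed mainly through the A2a groups. Further class II genes of the table did not pass: RT1-DOb had 299 counts over 48 libraries, RT1-DOa 243, RT1-Db2 51, RT1-DMb 36 and RT1-Ha 0.

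**Figure D1:**
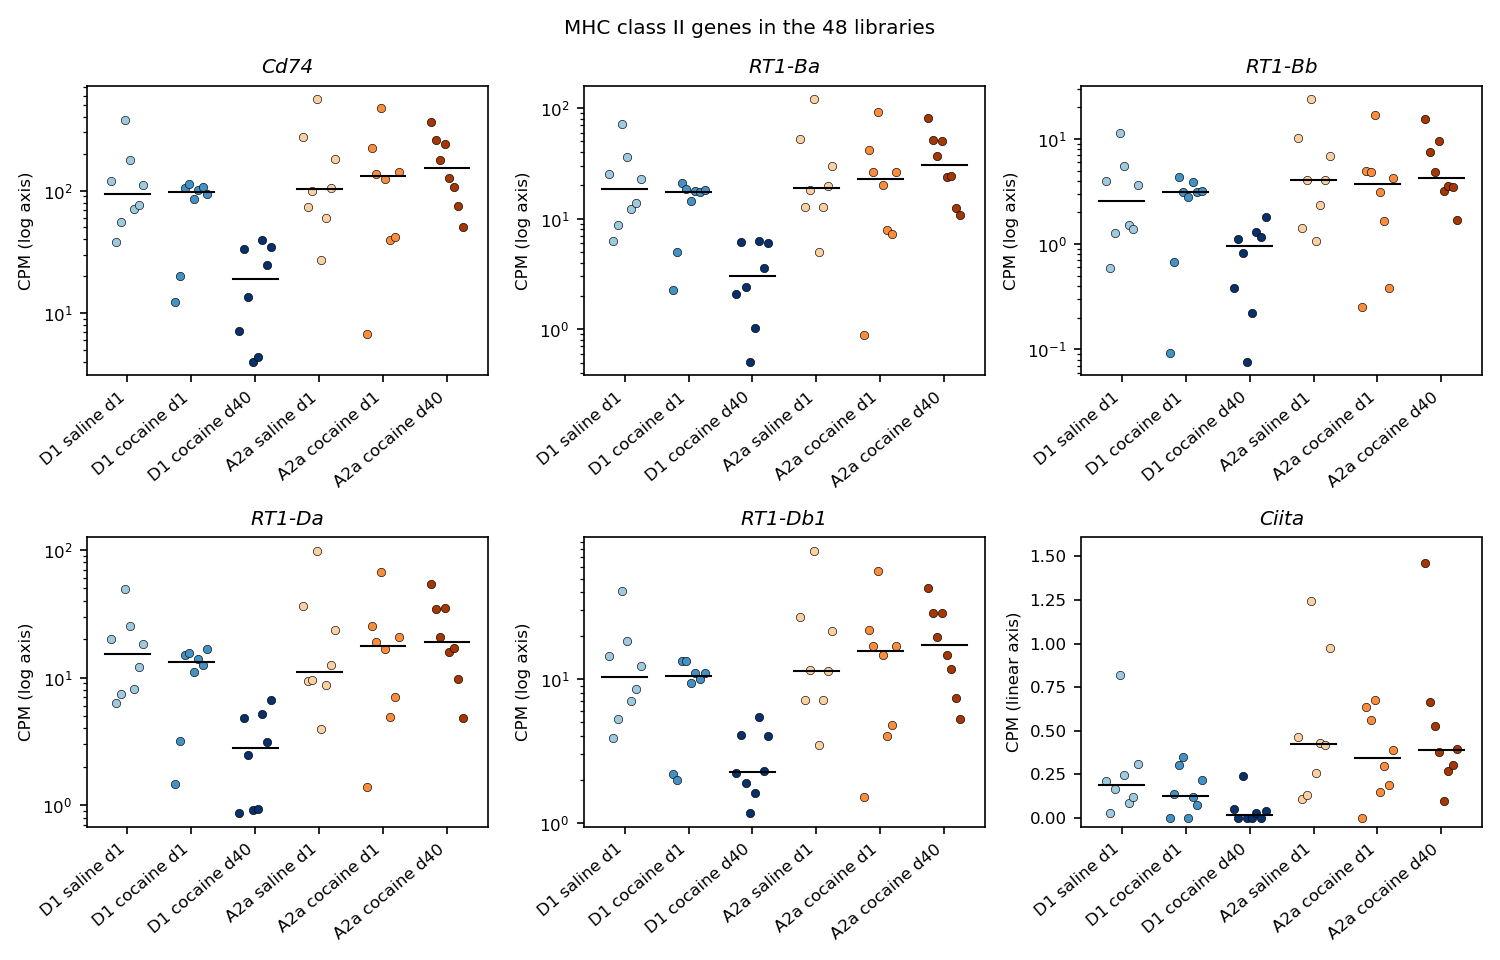
CPM of the 6 class II genes in each of the 48 libraries (points) with group medians (bars), on log axes except Ciita, whose axis is linear. D1 cocaine day 40 is the lowest group in each panel, with Cd74 between 3.97 and 39.7 CPM, and the A2a cocaine day 40 median of Cd74 is 152.3 CPM.

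Within the D1 line, the D1 saline median was 4.93 times the day 40 median for Cd74, 6.11 times for RT1-Ba, 5.41 times for RT1-Da, 4.60 times for RT1-Db1 and 2.67 times for RT1-Bb. In the model fitted to all 48 libraries, the log2 difference of day 40 from saline was -2.68 ± 0.66 (SE, 8 libraries per group) for Cd74, -2.84 ± 0.67 for RT1-Ba and -2.13 ± 0.71 for RT1-Bb. It was -2.59 ± 0.66 for RT1-Da, -2.30 ± 0.62 for RT1-Db1 and -2.40 ± 0.78 for Ciita. Of the 6 genes, Cd74, RT1-Ba, RT1-Da and RT1-Db1 were past an adjusted p of 0.05 in edgeR's quasi-likelihood fit, beside 1.53% of all 15580 genes tested in this direction. Nothing is read from that count, since the genes were chosen with such results known. It was 6 with DESeq2, 1 without D1 saline replicate 4, 2 without D1 day 40 replicate 4, and 3 without D1 day 40 replicate 5 or 7 or without D1 saline replicate 5. With every library of day 40 below every saline library, RT1-Ba was 1 of 6, beside 0.655% of all genes.

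Against cocaine at day 1, D1 day 40 libraries differed by -1.99 ± 0.64 for Cd74, -2.05 ± 0.66 for RT1-Ba and -1.67 ± 0.71 for RT1-Bb on the log2 scale. The difference was -1.87 ± 0.65 for RT1-Da, -1.68 ± 0.61 for RT1-Db1 and -1.68 ± 0.80 for Ciita. By edgeR 0 of the 6 were past an adjusted p of 0.05, beside 1.16% of all genes in this direction. All 6 were under an unadjusted p of 0.05, as were 2379 of all 15580 genes, and DESeq2 had 2 past the adjusted threshold. Nothing is read from these counts, as above. The groups overlapped at each of the 6 genes, where 0.116% of all genes had every day 40 library lower. D1 cocaine day 1 replicates 1 and 2 were also low, with Cd74 at 12.3 and 19.9 CPM. The other 6 libraries of that group lay between 84.8 and 114.3. Both comparisons of day 40 share the same day 40 libraries, so they are not independent of each other.

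After 1 day, estimates of the D1 line were lower with cocaine than with saline at all 6 genes. The SE are too wide to show that the groups were alike. The log2 differences were -0.79 to -0.46, each with an SE of 0.58 to 0.68, and the medians of Cd74 stood at 97.7 and 94.1 CPM. By edgeR none of the 6 genes passed, by unadjusted p or DESeq2 either, beside 0% of all genes. D1 saline replicate 4 was the highest library of its group at all 6 genes. Without it the estimate for Cd74 moved from -0.68 to -0.22, and that for RT1-Bb turned from -0.46 to 0.06.

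In the A2a line the estimates lay within 1 SE of 0 at day 40. The log2 differences of day 40 against cocaine day 1 were 0.19 to 0.45 (SE 0.57 to 0.65), and against saline -0.12 to 0.10 (SE 0.57 to 0.64). At day 1, cocaine against saline gave -0.52 to -0.20 (SE 0.57 to 0.65). None of the 6 passed in any of these comparisons by edgeR's adjusted or unadjusted p or by DESeq2, beside 0.263%, 0% and 0.0706% of all genes in either direction. Without A2a saline replicate 4 the differences of the day 1 comparison turned positive for 5 genes, Cd74 moving from -0.20 to 0.35, and the day 40 difference of Cd74 from saline moved from 0.02 to 0.57. Without A2a cocaine day 1 replicate 4 the day 1 differences went the other way, to -0.74 for Cd74 and -1.21 for RT1-Bb, and that of day 40 from cocaine day 1 moved to 0.76 for Cd74. Without A2a day 40 replicate 1, Cd74 at day 40 stood at -0.02 against cocaine day 1 and -0.22 against saline.

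Among saline animals, the D1 line lay below the A2a line by 0.43 ± 0.61 for Cd74 up to 0.99 ± 0.65 for Ciita on the log2 scale, with none of the 6 past the threshold by edgeR (0 unadjusted) or DESeq2, beside 8.13% of all genes. Without A2a saline replicate 4 the estimate turned to 0.13 for Cd74 and was above 0 for RT1-Ba, RT1-Da and RT1-Db1. Without D1 saline replicate 4 it moved the other way, to -0.90 for Cd74, and 2 of the 6 genes had an unadjusted p under 0.05. The day effect of the D1 line minus that of the A2a line was -2.22 ± 0.88 for Cd74, -2.41 ± 0.90 for RT1-Ba and -2.07 ± 0.96 for RT1-Bb. It was -2.09 ± 0.89 for RT1-Da, -1.87 ± 0.83 for RT1-Db1 and -2.13 ± 1.02 for Ciita. By edgeR 0 of the 6 interactions passed, as with DESeq2, beside 0.0642% of all genes, while all 6 had an unadjusted p under 0.05, as had 1632 of all 15580 genes. The 6 became 2 without A2a day 40 replicate 1 and 4 or more without any other single library. Nothing is read from these counts either. At day 40 itself, Cd74 and RT1-Ba were lower in every D1 library than in every A2a library, as 1.61% of all genes were. Their A2a medians were 7.97 and 10.1 times the D1 medians.

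**Figure D2:**
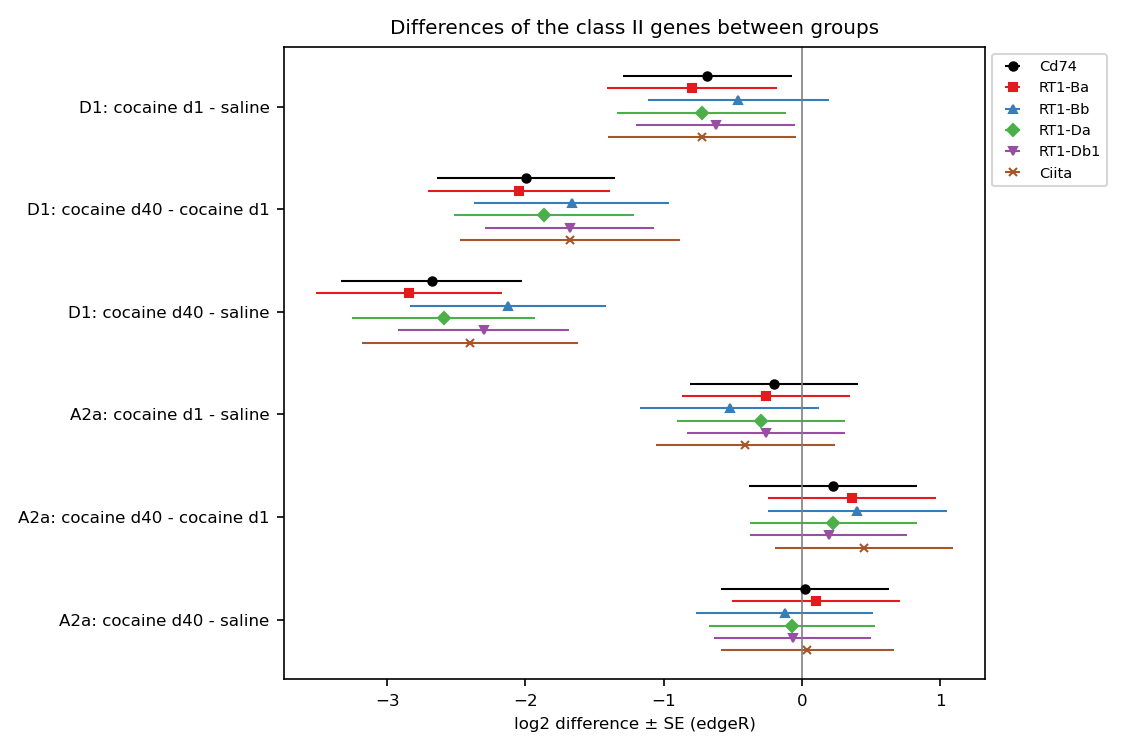
Log2 differences between groups (points) with SE (bars) for the 6 class II genes, from edgeR's fit over all 48 libraries. D1 day 40 lies left of 0 at all 6 genes against both D1 groups, at -2.84 to -1.67, and the A2a differences lie between -0.52 and 0.45.

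The 6 genes varied far more between libraries of a group than most genes did. The SD of log2 CPM within groups was 1.35 for Cd74, 1.37 for RT1-Ba, 1.49 for RT1-Bb, 1.31 for RT1-Da, 1.20 for RT1-Db1 and 1.05 for Ciita, against a median of 0.254 over all genes tested. RT1-Bb had a larger within-group SD than 99.4% of tested genes, and Ciita than 94.0%. Over the 48 libraries Cd74 ranged 141-fold, RT1-Ba 239-fold, RT1-Bb 315-fold, RT1-Da 114-fold and RT1-Db1 67.2-fold. The groups accounted for 43.0% of the variance of Cd74 and 31.0% of that of RT1-Bb, against a median of 17.2% over all genes tested. The rest lay between libraries of a group, where animal and handling cannot be told apart.

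They varied together. The correlation of each gene's log2 CPM with the mean of the other 5 over the 48 libraries was 0.984 for RT1-Ba, 0.978 for Cd74, 0.975 for RT1-Da, 0.972 for RT1-Db1, 0.955 for RT1-Bb and 0.788 for Ciita. With group means removed these became 0.952 to 0.977, and 0.672 for Ciita, so the genes also moved together among libraries of the same group. The libraries share depth and tissue handling, and the correlations are given with no test. Against Cd74 as a yardstick RT1-Ba kept a nearly fixed proportion. The log2 ratio of RT1-Ba to Cd74 had an SD of 0.210 over 48 libraries in which Cd74 itself had an SD of 1.69. The SD of the ratio was 0.273 for RT1-Da, 0.438 for RT1-Db1, 0.535 for RT1-Bb and 1.09 for the sparse Ciita. Group medians of the log2 ratio of RT1-Ba to Cd74 stayed between -2.49 and -2.27, with -2.49 at D1 day 40 and -2.42 in D1 saline. For the other genes the median ratio was less negative at D1 day 40 than in D1 saline. It was -2.6 and -2.73 for RT1-Da, -2.83 and -3.23 for RT1-Db1, -4.29 and -5.22 for RT1-Bb, and -7.45 and -8.81 for Ciita.

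**Figure D3:**
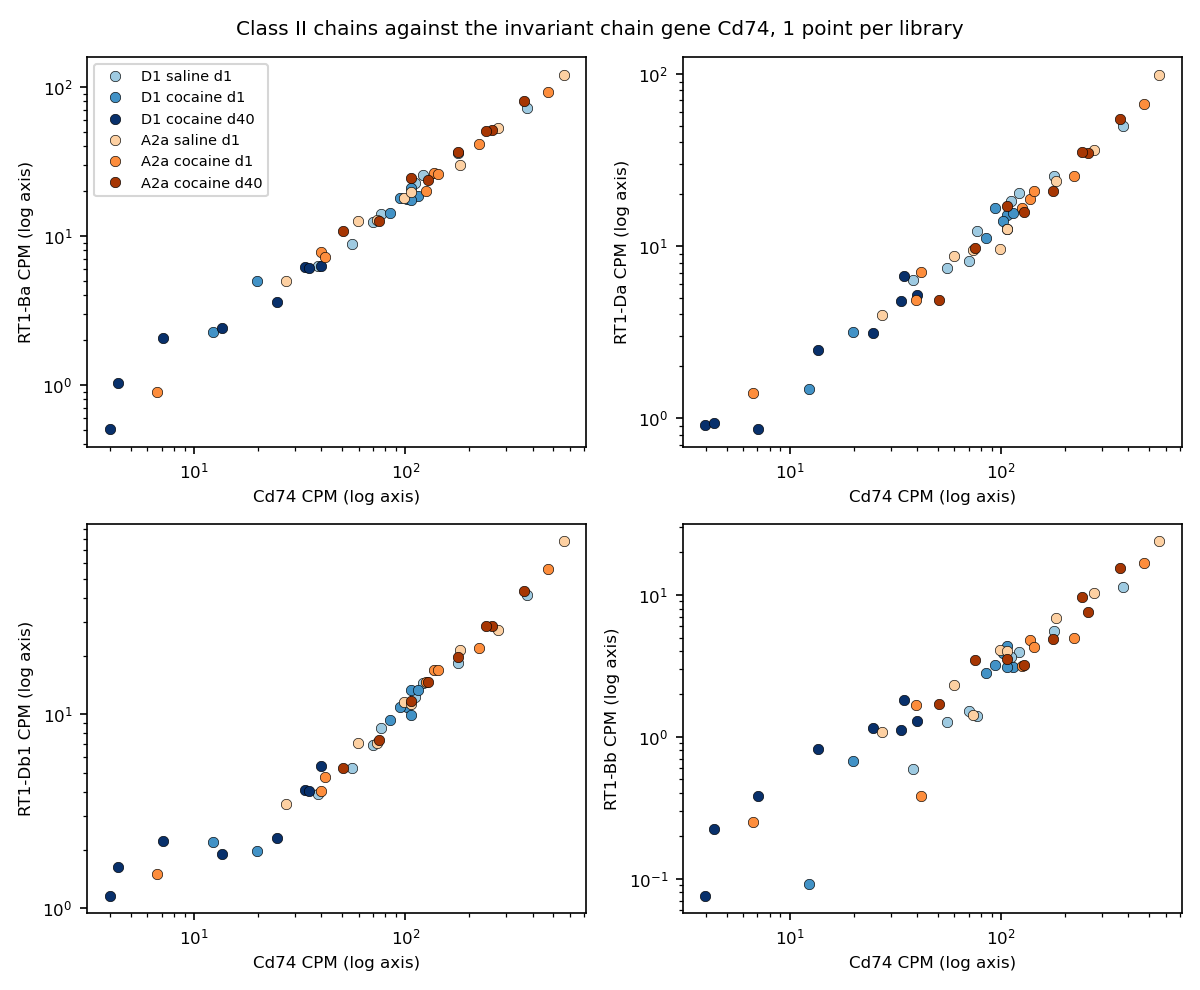
CPM of the 4 chain genes against CPM of Cd74, a point per library coloured by group, both axes on a log scale. The points lie along a line in each panel, most tightly for RT1-Ba (SD of the log2 ratio 0.210), and the D1 cocaine day 40 libraries sit at its lower end.

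The same libraries stood out at each chain gene. Summed over the 6 genes, CPM was lowest in D1 day 40 replicates 4, 5 and 1 (6.62, 8.17 and 12.7) and in A2a cocaine day 1 replicate 1 (10.7). D1 cocaine day 1 replicates 1 and 2 followed, with D1 day 40 replicate 3 between them, at 18.3 to 30.8. The highest sums were 883.1 in A2a saline replicate 4, 709.4 in A2a cocaine day 1 replicate 4, 559.7 in A2a day 40 replicate 1 and 550.8 in D1 saline replicate 4. Low libraries thus occurred in both lines, and D1 day 40 was the group without a sum above 57.9.

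Of the other genes, those whose pattern over the 48 libraries was most like the class II genes included C3, Ncf1, RT1-CE1, Fcgr3a, Cd68, Rac2 and Ifi30. Likeness was the Pearson r of log2 CPM with the mean of the standardised class II genes. It was 0.946 for C3, a complement component, with a Spearman rho of 0.939, and 0.932 without the 2 farthest libraries. It was 0.929 for Ncf1, a phagocyte oxidase subunit, 0.924 for the class I gene RT1-CE1, 0.917 for the Fc receptor gene Fcgr3a and 0.914 for the lysosomal macrophage gene Cd68. With group means removed, the nearest genes were C3 (0.925), Ncf1 and Ifi30 (both 0.880), Was, Fcgr3a, RT1-CE1, Cd68 and C1qc (0.864). Of all tested genes, 0.854% had an r above 0.8. C3 itself ran from 3.11 through 9.41 to 16.7 CPM at D1 day 40. The values were 23.9, 57.9 and 128.9 in D1 saline and 40.9, 85.7 and 158.8 in A2a day 40. Every D1 day 40 library was lower than every library of these groups, as for 0.655% and 1.61% of all genes. C3 was picked for its likeness over these same libraries, D1 day 40 included. Its low values there therefore follow in part from the choice.

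The rest of the class II pathway was followed through a list of 33 names, of which 29 were in the table and 25 passed the filter. It was chosen with earlier results of these data known, so its counts and p are not independent support. The list holds endosomal proteases and editors of the peptide groove, co-stimulatory ligands, the RFX, NF-Y and CREB factors of class II promoters, and the interferon-gamma receptor with its downstream factors. At D1 day 40 against saline, 5 of the 25 were lower and 0 higher by edgeR's quasi-likelihood test with Benjamini-Hochberg adjustment, beside 2.61% of all genes in either direction. The median log2 difference of the 25 was -0.13, against -0.01 over all genes. Those lower included Irf8, Cd86, Ctss and Spi1.

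In D1 libraries, Irf8, an interferon regulatory factor of myeloid cells, fell from a median of 10.0 CPM (7.64 to 17.6) in D1 saline to 5.39 (4.04 to 6.07) at D1 day 40, with no overlap. Its log2 difference was -1.09 ± 0.26 (edgeR adjusted p = 0.0141). Cd86, a co-stimulatory ligand of antigen-presenting cells, fell from 1.59 CPM (0.802 to 3.14) to 0.567 (0.202 to 1.06), by -1.54 ± 0.40 in log2 (edgeR adjusted p = 0.0222).

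Ctss, the protease that trims the invariant chain, fell from 124.5 CPM (72.1 to 220.8) to 81.6 (55.7 to 106.4), by -0.76 ± 0.21 in log2 (edgeR adjusted p = 0.0413). Spi1, the myeloid transcription factor PU.1, fell by -1.03 ± 0.30 in log2 (edgeR adjusted p = 0.0470). It falls outside the rule for named genes and was named after its values were seen, because the count is small. The count was 2 without D1 day 40 replicate 4 or 7 or without D1 saline replicate 4. It was 3 without D1 day 40 replicate 1, 2, 3, 5 or 6 or without D1 saline replicate 5, 7 or 8. The DNA-binding factors of the class II promoter did not pass in this comparison. Rfx5, a subunit of the RFX complex, had medians of 21.9 CPM in D1 saline and 21.9 at D1 day 40. Nfya, the NF-Y subunit, had 13.5 and 12.5.

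At D1 day 40 against cocaine day 1, 1 of the 25 genes was lower and 0 higher, beside 1.85% of all genes in either direction, and DESeq2 called 3. This gene was Irf8, whose median went from 10.6 CPM (3.10 to 16.4) to 5.39, by -0.98 ± 0.26 in log2 (edgeR adjusted p = 0.0349). In 9 of the 16 fits that left out a library of these groups 0 genes passed. The count was 4 without D1 cocaine day 1 replicate 1 and 5 without replicate 2, the same libraries that were low in class II genes.

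In the A2a line 0 of the 25 genes passed by edgeR or DESeq2 at day 40 against cocaine day 1, where 0.263% of all genes passed by edgeR. At an unadjusted p under 0.05 were 2 of the 25, beside 1641 of all 15580 genes. The genes with the smallest p were Marchf8, a ubiquitin ligase of class II, at 0.18 ± 0.08 in log2, and the kinase gene Jak2 at 0.18 ± 0.08. Neither passed. For cocaine day 40 against saline of day 1, 0 passed by either tool, beside 0% of all genes by edgeR. Nearest were Ifngr2 at -0.16 ± 0.06 and Nfya at 0.29 ± 0.11. Unadjusted, 3 of the 25 were under 0.05, beside 838 of all genes. After 1 day of withdrawal, cocaine against saline gave 0 in both lines by both tools, beside 0% of all genes in D1 and 0.0706% in A2a by edgeR. Unadjusted, D1 had 0 of the 25 beside 363 of all genes, and A2a had 1 beside 932. The nearest were Ifngr2 (-0.11 ± 0.06) and Nfya (-0.20 ± 0.11) in D1, and Ifngr2 (-0.18 ± 0.06) and Irf1 (-0.45 ± 0.24) in A2a.

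The difference between the lines in day effect was tested directly. For the 25 pathway genes 0 passed by edgeR or DESeq2, beside 0.0642% of all genes by edgeR. An unadjusted p under 0.05 was found for 8, as for 1632 of all 15580 genes. The nearest were Cd86 (-1.87 ± 0.55, edgeR adjusted p = 0.134) and Irf8 (-1.20 ± 0.36, edgeR adjusted p = 0.155). A call in the D1 line alone is thus not shown to differ from the A2a line. In saline animals, Ctsb, a lysosomal protease, was higher in D1 than A2a libraries, with medians of 518.4 and 442.1 CPM and a log2 difference of 0.20 ± 0.05 (edgeR adjusted p = 0.00676). Nfyc, an NF-Y subunit, was lower, with medians of 97.8 and 109.2 CPM and a log2 difference of -0.15 ± 0.05 (edgeR adjusted p = 0.0446). These were 2 of 25, beside 8.13% of all genes.

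**Figure D4:**
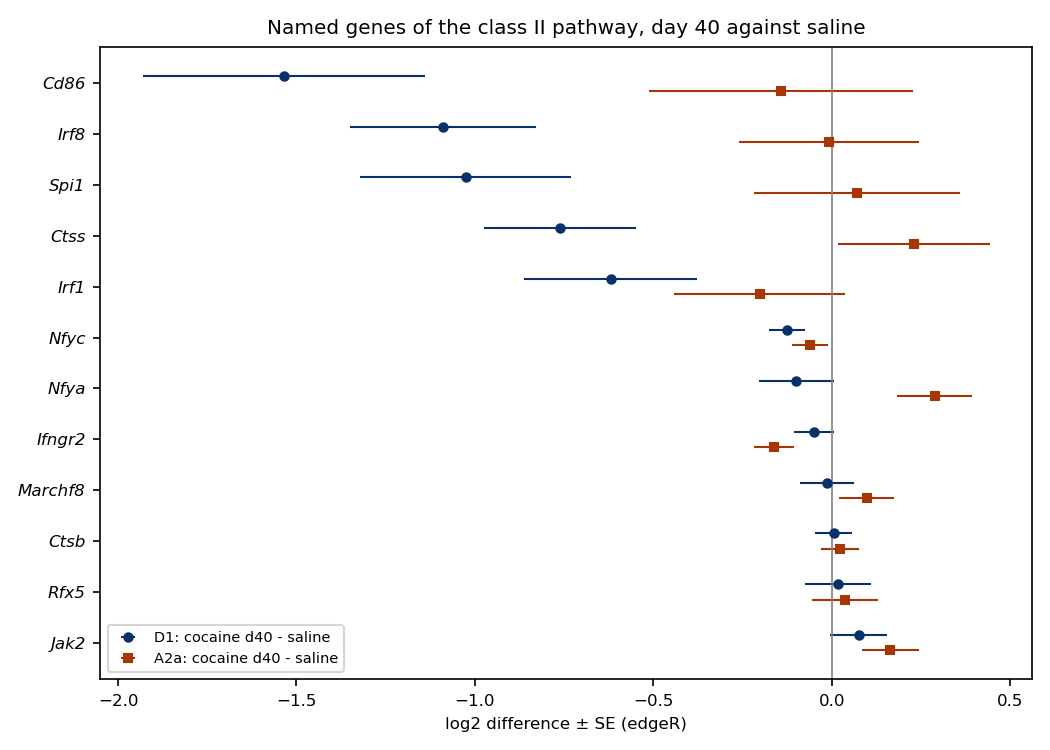
Log2 differences of day 40 against saline (points) with SE (bars) for the 12 pathway genes named in the text, in the D1 line (circles) and the A2a line (squares), from edgeR. Near the top Cd86, Irf8 and Spi1 lie at -1.54 to -1.03 in D1, and the A2a values of these 3 genes lie between -0.14 and 0.07.

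Class I presentation genes were lower at D1 day 40 as well. Their list was also chosen with earlier results of these data known, so its counts and p are not independent support. Of 12 tested genes of the class I list, 6 were lower and 0 higher against D1 saline by edgeR, and 4 lower and 0 higher against cocaine day 1, beside 1.53% and 1.16% of all genes in this direction. The median log2 differences of the 12 were -1.18 and -0.94, against -0.01 over all genes in both comparisons. Tap1, the peptide transporter subunit, fell from a median of 12.3 CPM (5.48 to 17.2) in D1 saline to 2.52 (1.27 to 2.94), by -2.28 ± 0.47 in log2 (edgeR adjusted p = 0.00472). B2m, the class I light chain, fell from 377.9 (287.0 to 619.1) to 189.5 (138.4 to 237.0), by -1.05 ± 0.26 (edgeR adjusted p = 0.0197). Nlrc5, the class I counterpart of Ciita, fell by -1.62 ± 0.38 (edgeR adjusted p = 0.0119). The remaining 3 were Psmb8, Psmb9 and RT1-S3. In the A2a comparisons 0 of the 12 passed.

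Markers of other cells moved with the class II genes in part. The marker lists were chosen with earlier results of these data known, so their calls are not independent support either. Summed CPM of 10 microglia markers had a median of 203.9 (156.6 to 262.0) at D1 day 40, against 304.6 (204.7 to 530.8) in D1 saline and 344.1 (154.1 to 476.1) in D1 cocaine day 1. In the A2a groups the medians were 355.8 with saline, 320.9 with cocaine day 1 and 379.0 at day 40. Of the 10 markers, 4 were lower against saline and 3 against cocaine day 1 and 0 were higher. Itgam, C1qa, Cx3cr1 and Tyrobp were the 4 lower against saline by edgeR's adjusted p, beside 1.53% of all genes in this direction. C1qa, a complement component of microglia, fell from 121.2 CPM (70.0 to 211.2) to 56.7 (45.9 to 78.1). P2ry12, a further microglia marker, had medians of 4.75 CPM in saline and 4.33 at day 40 and did not pass.

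B cell and plasma cell markers were sparse and also low. Summed CPM of 7 B cell markers had a median of 0.527 (0.327 to 1.25) at D1 day 40, against 1.71 (0.955 to 5.52) in D1 saline and 1.39 (0.380 to 2.55) in D1 cocaine day 1. Of these 7, 2 had a mean above 0.1 CPM at D1 day 40, and the defining genes Ms4a1 and Pax5 were near 0 throughout. Summed CPM of 5 plasma cell markers was 1.06 to 2.46 at D1 day 40, against 9.41 to 79.8 in D1 saline and 1.47 to 30.5 in D1 cocaine day 1. Most of it was Jchain, the joining chain of secreted antibodies, at 1.01 to 1.60 CPM at D1 day 40 and 8.79 to 71.7 in D1 saline. By edgeR 2 of 4 tested B cell markers were lower at D1 day 40 against saline and 0 against cocaine day 1. For 4 tested plasma cell markers the counts were 3 and 2. Beside them stood 1.53% and 1.16% of all genes in this direction.

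Border macrophage markers summed to a median of 3.70 CPM (2.76 to 6.23) at D1 day 40 and 5.26 (2.19 to 7.27) in D1 saline. Of 5 tested, F13a1 was lower against saline, beside 1.53% of all genes in this direction. Mrc1 and Cd163, which define these cells, had medians of 1.49 and 0.893 at D1 day 40 and 1.54 and 0.964 in saline. Endothelial markers summed to 24.1 CPM (16.4 to 29.5) at D1 day 40 and 24.0 (13.8 to 39.9) in saline. Dendritic cell, T cell, astrocyte and neutrophil or monocyte markers had D1 day 40 medians of 23.3, 4.38, 615.8 and 25.1 CPM, against 21.8, 5.20, 645.0 and 32.7 in saline. Of the 3 tested neutrophil or monocyte markers, Plac8 was lower against saline, by -2.96 ± 0.61 in log2 (edgeR adjusted p = 0.00437), and against cocaine day 1. In this direction 1.53% and 1.16% of all genes passed. None of the tested dendritic cell, T cell and astrocyte markers passed in these comparisons. The part of these lists in the class II result, and that of the microglia, B cell and plasma cell markers, was not tested. As a description, the median r with the class II genes over the 48 libraries was 0.799 for microglia markers, 0.807 for plasma cell markers, 0.708 for B cell markers, 0.573 for neutrophil or monocyte markers, 0.420 for T cell markers and 0.407 for border macrophage markers. It was 0.102 for endothelial, 0.0869 for astrocyte and -0.0483 for dendritic cell markers. For the neuron markers it was 0.46 (A2a) and -0.442 (D1), and over all genes -0.000269. With group means removed the median r was 0.772 for microglia, 0.701 for plasma cell, 0.65 for neutrophil or monocyte and 0.586 for B cell markers. For T cell, border macrophage, endothelial and astrocyte markers it was then 0.476, 0.363, 0.308 and 0.29. A2a neuron, dendritic cell and D1 neuron markers had 0.156, 0.088 and -0.0502, and all genes -0.00973.

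**Figure D5:**
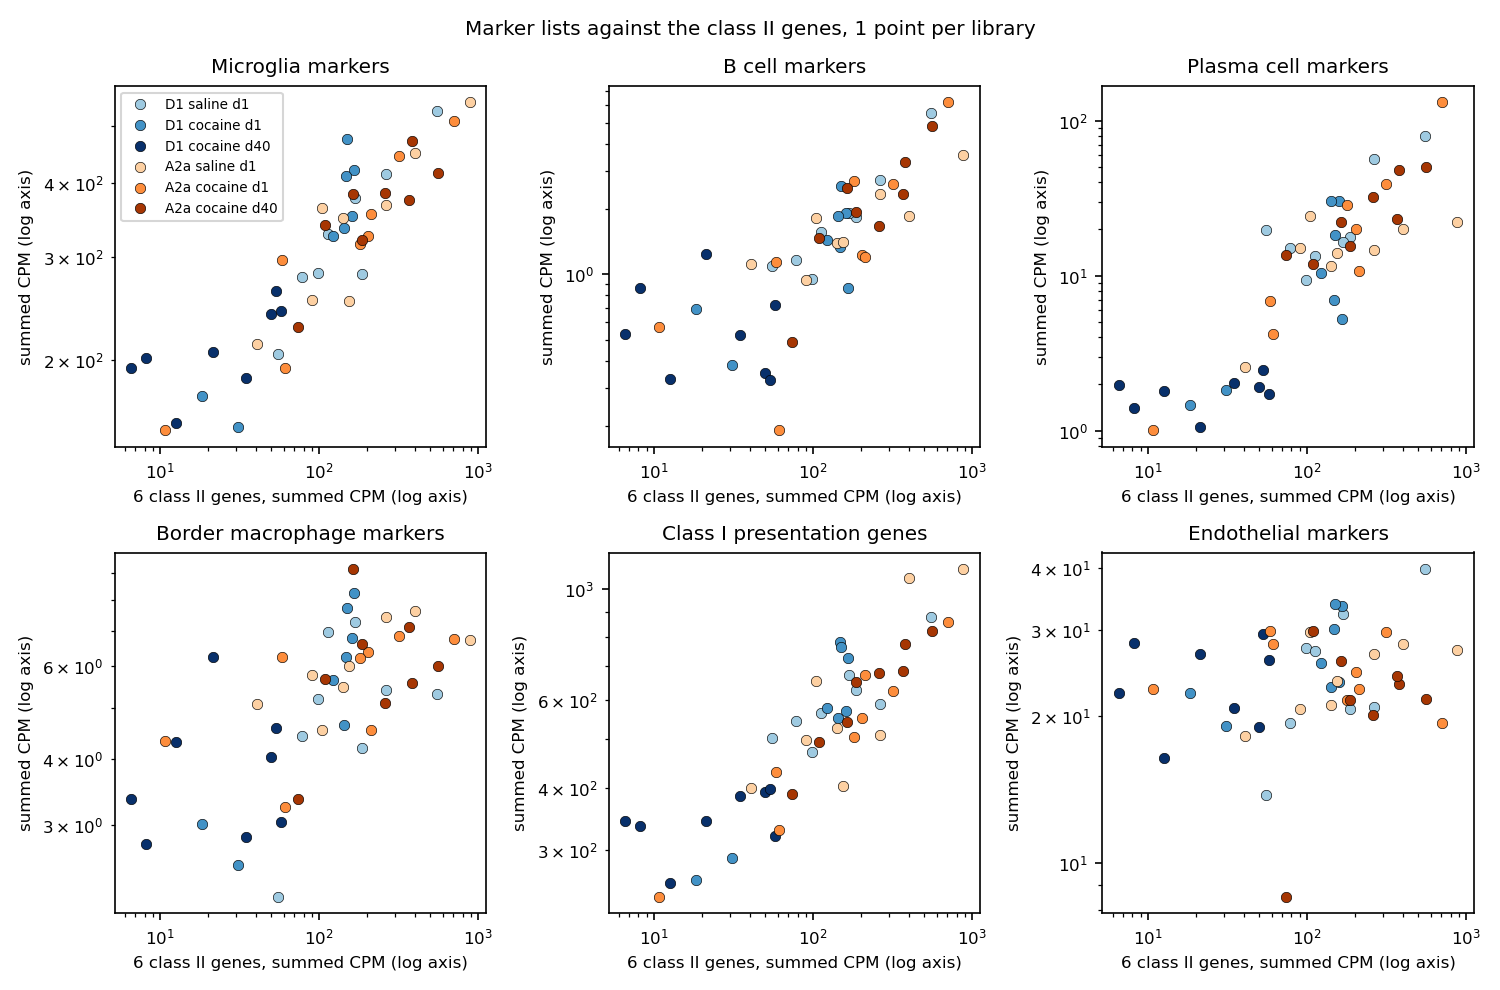
Summed CPM of 6 gene lists against summed CPM of the 6 class II genes, a point per library coloured by group, both axes on a log scale. Microglia, B cell, plasma cell and class I sums are higher where class II sums are higher, D1 day 40 plasma cell sums lie at 1.06 to 2.46, and endothelial sums show little slope.

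The middle number of the sample description is shared by sets of libraries, and the labels do not say what it stands for. Number 85 marks the whole D1 day 40 group and number 88 the whole A2a day 40 group, while the day 1 groups have 89, 91 or 92. The set and the day therefore cannot be told apart, nor the set and the line at day 40. Within the day 1 sets, Cd74 medians of the D1 line with cocaine and saline were 63.0 and 79.6 CPM in set 89, 93.2 and 123.6 in set 91, and 100.2 and 94.1 in set 92. In the A2a line they were 125.2 and 89.8 in set 89, 475.7 and 98.7 in set 91, and 92.3 and 181.7 in set 92, with 1 library behind the values 475.7 and 181.7. The order of cocaine and saline thus differed between sets. With the set number as a term, 0 of the 6 class II genes passed between cocaine and saline at day 1 in either line.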

How the data were processed

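The deposited table holds whole-number read counts per gene, not normalized by the authors, for 32883 genes in 48 libraries. The tools named in the submitters' processing notes are STAR, SAMtools, Trimmomatic and bcl2fastq, with Rnor_6.0 as the genome. The sources used here do not give versions, counting program, annotation or strandedness, so reads of overlapping genes and of near-identical RT1 copies cannot be told apart.

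Replicates are separate brains per the labels. No 2 of the 168 within-group library pairs held identical counts, and the lowest chi-square per gene was 10.3. Replicate numbers were not taken to pair the groups. With group means removed, samples with the same number correlated at a median r of 0.0495, up to 0.315, and 28 of 120 pairs were over 0.1. Samples with different numbers were not compared, so pairing is not excluded.

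The filter of edgeR 4.0.16 (R 4.3.3) at a minimum count of 10 left 15580 genes. TMM scaling was followed by a robust quasi-likelihood fit over the 48 libraries, each group being a term. Each contrast was adjusted by Benjamini-Hochberg over all 15580 genes, with a threshold of 0.05. Log2 CPM used a prior count of 2. SE is the size of the log2 difference divided by the square root of F. The fit was checked on simulated counts. Alternatives were DESeq2 1.42.0, its size factors, no filter, the compared groups alone, a replicate block, the middle number of the sample description as a term, and leaving out each library.

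The 6 class II genes and all lists were chosen with earlier results of these data known. Named pathway genes are all that passed where 4 or fewer did, otherwise the 4 with the smallest p, or the 2 nearest where none did. Like genes are the 8 with the highest r. Motifs were searched on both strands of RefSeq (GRCr8) promoter windows. The March1 and March8 names of the list are present as Marchf1 and Marchf8, and RT1-DMa and Rfxap were not analysed here. Input RNA was not used here. Some genes that these rules select are not reported here, and the counts include them.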

Additional observations from a re-analysis of the deposited data

Results flagged for a closer look

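The highest library of a group lay far from the next in 18 of the 36 combinations of 6 genes and 6 groups, by the size of the gap relative to the range of the group. Chance gives about 1 in 20 for independent groups of normally distributed values. CPM of these genes is skewed towards high values, for which the rate is not known, and the genes move together, so the 18 are not separate events.

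Apart from the remaining flags given below, the library was replicate 4 of a day 1 group each time. In A2a cocaine day 1, replicate 4 reached 475.7 CPM for Cd74 (next 222.0), 92.8 for RT1-Ba, 16.8 for RT1-Bb, 67.1 for RT1-Da and 56.3 for RT1-Db1. In A2a saline, replicate 4 reached 560.6 for Cd74 (next 274.4), 120.6 for RT1-Ba, 23.9 for RT1-Bb, 98.7 for RT1-Da and 78.1 for RT1-Db1. In D1 saline, replicate 4 reached 376.0 for Cd74 (next 177.1), 71.9 for RT1-Ba, 11.3 for RT1-Bb, 49.8 for RT1-Da and 41.1 for RT1-Db1, and 0.818 for Ciita. In the sample description, both A2a libraries have the middle number 91 and the D1 library 92, and the first numbers are 40, 36 and 35 in the order given here. What these numbers stand for is not given. Their summed microglia markers were 510.7, 549.3 and 530.8 CPM, and their summed plasma cell markers 131.0, 22.0 and 79.8.

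The remaining flags were Ciita in A2a day 40 replicate 1, at 1.46 CPM, and Ciita in D1 day 40 replicate 3, at 0.239 CPM from 9 of the group's 13 counts.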

How the results depend on the processing

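No log2 difference of a class II gene that was past the threshold changed sign. Of the recomputed differences, 1115 moved by less than the gene's within-group SD (1.05 to 1.49). Another 3 moved by more. They were Ciita without D1 day 40 replicate 3, which went to -2.99 against D1 cocaine day 1, -3.72 against D1 saline and -3.44 for the difference between the lines. That SD is larger than the SE of the differences, so leaving out 1 of 8 libraries could rarely exceed it. The count of 1115 therefore does not show that the estimates are stable. Differences not past the threshold did change sign, as given above. The number of the 25 pathway genes past the threshold moved more. For D1 day 40 against cocaine day 1 it was 1, became 0 without the filter on low counts or with the 2 groups fitted alone, 3 with DESeq2, and 0 to 5 when a library was left out. For D1 day 40 against saline it was 5, became 3 without the filter, and 2 to 5 when a library was left out. For D1 against A2a in saline animals it was 2, became 1 without the filter, and 1 to 3 when a library was left out. In the other 5 contrasts it was 0 under each alternative run. The cause of these shifts was not tested. With the replicate number as a block these counts were 1, 5 and 2, and the number of class II genes past the threshold at D1 day 40 against saline was 3 in place of 4. The main fit did not take the numbers to pair the samples.

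Ciita and RT1-Bb are limited by depth, with as few as 0 and 2 counts in a library.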

Other observations

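The letters of the X1 box followed by those of the Y box on the sense strand, with starts 20 to 30 bases apart, were found in 8 of 33469 RefSeq promoter windows, or 0.0239%. The spacing was chosen after the class II windows had been seen. These 8 windows belonged to RT1-Da, RT1-Db1 and RT1-Bb, to the class II genes RT1-Db2, RT1-DOb and RT1-DMa, and to Mtmr4 and Aanat. Over the 48 libraries the r of Mtmr4 with the class II genes was -0.392 and that of Aanat -0.458. For RT1-Bb, RT1-Db1 and RT1-Da, the r with the mean of the other 5 class II genes was 0.955 to 0.975. RT1-DOb, with 299 counts, and RT1-Db2, with 51, were too sparse to be placed.

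The sample description opens with a number whose meaning the labels do not give. In A2a day 40, Cd74 was 364.3 CPM at number 8, 258.4 at 14, 176.6 at 20, 128.0 at 38, 106.4 at 44, 75.3 at 53, 50.6 at 59 and 242.0 at 62. In D1 cocaine day 1 the low libraries had numbers 3 and 9, and in A2a cocaine day 1 the lowest, at 6.66 CPM, had number 4. In the D1 saline group the library with number 5 stood at 120.9 CPM. D1 day 40 showed no steady fall. Its Cd74 was 7.075 CPM at number 1, 33.6 at 13, 13.55 at 25 and 4.37 at 31. It was 39.7 at 37, 24.65 at 43, 34.8 at 49 and 3.97 at 57.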
